A study of Drosophila melanogaster with 2 samples.

Results

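The mitochondrial ribosomal protein genes of Drosophila melanogaster encode the proteins of the ribosome inside mitochondria. They were taken as every gene of the annotation whose symbol starts with mRpL (large subunit) or mRpS (small subunit). This gave 73 of 18277 annotated genes, all protein-coding, of which 47 were mRpL and 26 mRpS genes. Peaks of the tagged protein Jing, found by chromatin immunoprecipitation followed by sequencing (ChIP-seq), were looked up at these genes. The material was whole embryos (0 to 16 h, both sexes pooled) of a transgenic line in which Jing carries green fluorescent protein (GFP, eGFP in the labels) at its C terminus. Chromatin was sonicated to 200 to 800 bp and precipitated with an antibody against GFP. All samples formed 1 group, with biological replicates 2 and 3, so neither conditions nor samples could be tested against each other. Whole embryos mix all cell types, so the cells in which a peak arose cannot be told apart, and the labels describe an insertion targeting jing but name no promoter that drives it. The deposited lists hold 30000 relaxed peaks for each replicate, 30000 for the pooled reads, and 2593 thresholded peaks, which were exactly the 2593 strongest of the pooled list. They hold no read counts, so the depth of the libraries is unknown.

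Mitochondrial ribosomes translate the few messages encoded in mitochondrial DNA, which code for core subunits of the respiratory chain and the ATP synthase. Their small subunit decodes the message and their large subunit joins the amino acids, and in animals all of their proteins are encoded in the nucleus, made in the cytosol and imported. Some have a bacterial counterpart, and others occur only in mitochondria. Jing is a zinc finger protein, the fly counterpart of AEBP2, a cofactor of Polycomb repressive complex 2.

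Of the 73 genes, 10 had a thresholded summit (the position of highest signal in a peak) in the gene or within 1 kb of it. The letters at 6 of these summits are printed as examples, though not all show low GC content and long A and T runs. Each is the reference sequence (Release 6 of the genome, from RefSeq, the same coordinates as dm6) from 60 bp before to 60 bp after the summit, on the plus strand, 5′ to 3′, and capitals mark runs of 8 or more A or T. None of these windows holds any annotated untranslated base.
mRpS23 summit, chr2L:13835393-13835513: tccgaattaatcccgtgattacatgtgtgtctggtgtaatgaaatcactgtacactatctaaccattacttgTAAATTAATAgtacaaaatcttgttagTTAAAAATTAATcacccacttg
mRpS10 summit, chr3R:15229457-15229577: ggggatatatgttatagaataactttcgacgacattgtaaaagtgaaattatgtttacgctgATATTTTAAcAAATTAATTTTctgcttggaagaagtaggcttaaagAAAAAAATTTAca
mRpL20 summit, chr3L:13018076-13018196: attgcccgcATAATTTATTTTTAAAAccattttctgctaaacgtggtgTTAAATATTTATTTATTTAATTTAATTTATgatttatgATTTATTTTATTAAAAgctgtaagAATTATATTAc
mRpL24 summit, chr2L:4945425-4945545: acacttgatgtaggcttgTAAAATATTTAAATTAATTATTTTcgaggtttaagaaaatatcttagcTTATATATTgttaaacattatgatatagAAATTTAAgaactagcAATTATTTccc
mRpS26 summit, chr3L:18106296-18106416: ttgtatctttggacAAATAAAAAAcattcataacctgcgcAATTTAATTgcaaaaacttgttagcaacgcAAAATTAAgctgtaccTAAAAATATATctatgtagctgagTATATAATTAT
mRpS6 summit, chr3L:4364411-4364531: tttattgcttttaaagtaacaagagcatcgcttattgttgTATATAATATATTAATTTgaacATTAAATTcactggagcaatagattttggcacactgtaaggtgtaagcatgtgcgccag

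In these 6 windows of 121 bp the GC content was 19.0% to 32.2%, and the longest run of A and T was 11 to 30 bp. The longest run, at mRpL20, and the run of 24 bp at mRpL24 are the long stretches of capitals above. Within 100 bp of the summit on either side, the 10 summits had a GC content of 26.4% to 35.8% with a median of 28.9%, against a median of 34.8% over all 2593 thresholded summits. Of the 10, 9 were below that median, and the exception was mRpS23 at 35.8%. The longest run of A and T in the same window had a median of 17 bp at the 10 summits and of 12 bp over all thresholded summits. It was above that median at 7 of the 10, but not at mRpS10, mRpS23 and mRpL13. All 10 were lower in GC than the windows centred 500 bp to either side, as were 62.2% of all thresholded summits and 63.0% of the 1059 within 500 bp of any start site. At mRpL20, for example, the summit had 26.4% and its flanks 51.2% and 52.7%. The difference was smallest at mRpS23, with 35.8% at the summit and 39.8% and 45.3% in the flanks. At mRpL41 it was small on 1 side, with 26.4% at the summit and 51.2% and 32.3% in the flanks.

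**Figure D1:**
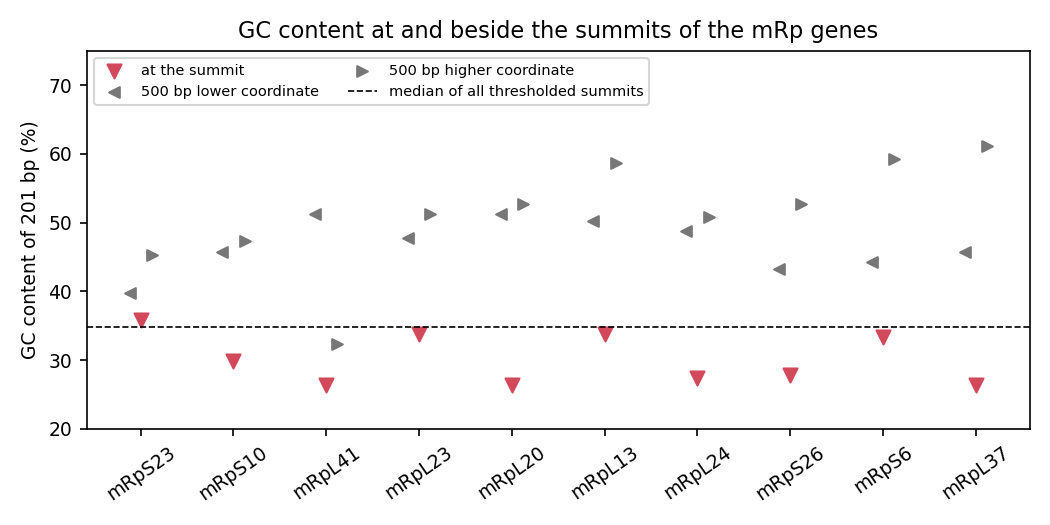
GC content in percent (y axis) of the window reaching 100 bp to either side of each of the 10 thresholded summits (red triangles) and of equal windows 500 bp to either side (grey), ordered by peak signal; the dashed line is the median of all thresholded summits, 34.8%. Every summit is lower than both of its flanks, and only mRpS23 is above the dashed line.

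The 4 strongest of these peaks were among the strongest anywhere in the genome. mRpS23 (FBgn0260407), a small subunit protein that occurs only in mitochondria, had a thresholded signal of 1442 and rank 11 of 2593. Its signal was 542 at rank 12 in replicate 2 and 898 at rank 9 in replicate 3. Signals here are the values the authors deposited for each peak, on an unstated scale, and serve only to rank and describe peaks within a list. mRpS10 (FBgn0038307), the counterpart of a bacterial small subunit protein that also acts in transcription antitermination, followed with a signal of 1412 at rank 12. Replicate 2 had it at rank 9 with a signal of 620, and replicate 3 at rank 13 with 799. mRpL41 (FBgn0034001), a large subunit protein with no bacterial counterpart, had a signal of 1187 at rank 16. Its ranks were 17 in replicate 2 and 18 in replicate 3, with signals of 473 and 713. Thus 3 of the 73 genes lay within 1 kb of one of the 20 strongest peaks, a bound chosen after the values were seen, while 29 of the 13895 other protein-coding genes did (0.209%). mRpL23 (FBgn0035335), the counterpart of a protein at the exit of the bacterial peptide tunnel, had a signal of 823 at rank 53, with ranks 64 and 45 in replicates 2 and 3.

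The next 3 peaks had signals above the median of the thresholded list, 170. mRpL20 (FBgn0036335), a counterpart of a bacterial assembly protein of the large subunit, had a signal of 303 at rank 489. Its ranks in replicates 2 and 3 were 459 and 529. A peak beyond the 3′ end of mRpL13 (FBgn0032720), another large subunit gene, had a signal of 281 at rank 569, with ranks 756 and 464. mRpL24 (FBgn0031651), whose bacterial counterpart binds early in the assembly of the large subunit, had a signal of 259 at rank 656, with ranks 742 and 659. For these 7 genes both replicates thus placed the peak well inside the range of the thresholded list.

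The last 3 peaks lay near the threshold, which the weakest thresholded peak sets at a signal of 106, and they were weak in replicate 2. mRpS26 (FBgn0036774), a mitochondria-specific small subunit protein, had a signal of 126 at rank 2039. Replicate 2 had it at rank 3935, and replicate 3 at 1620. mRpS6 (FBgn0035534), the counterpart of a bacterial small subunit protein, had a signal of 124 at rank 2095, with ranks 3576 and 1534. mRpL37 (FBgn0261380), a mitochondria-specific large subunit protein, had a signal of 107 at rank 2557, with ranks 4794 and 1793. Rank 4794 and the other 2 ranks in replicate 2 fall past the 2593 strongest peaks of that list, while none does in replicate 3. Over all 10 peaks, both replicates had a summit within 200 bp, and the farthest was 23 bp from the thresholded summit.

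**Figure D2:**
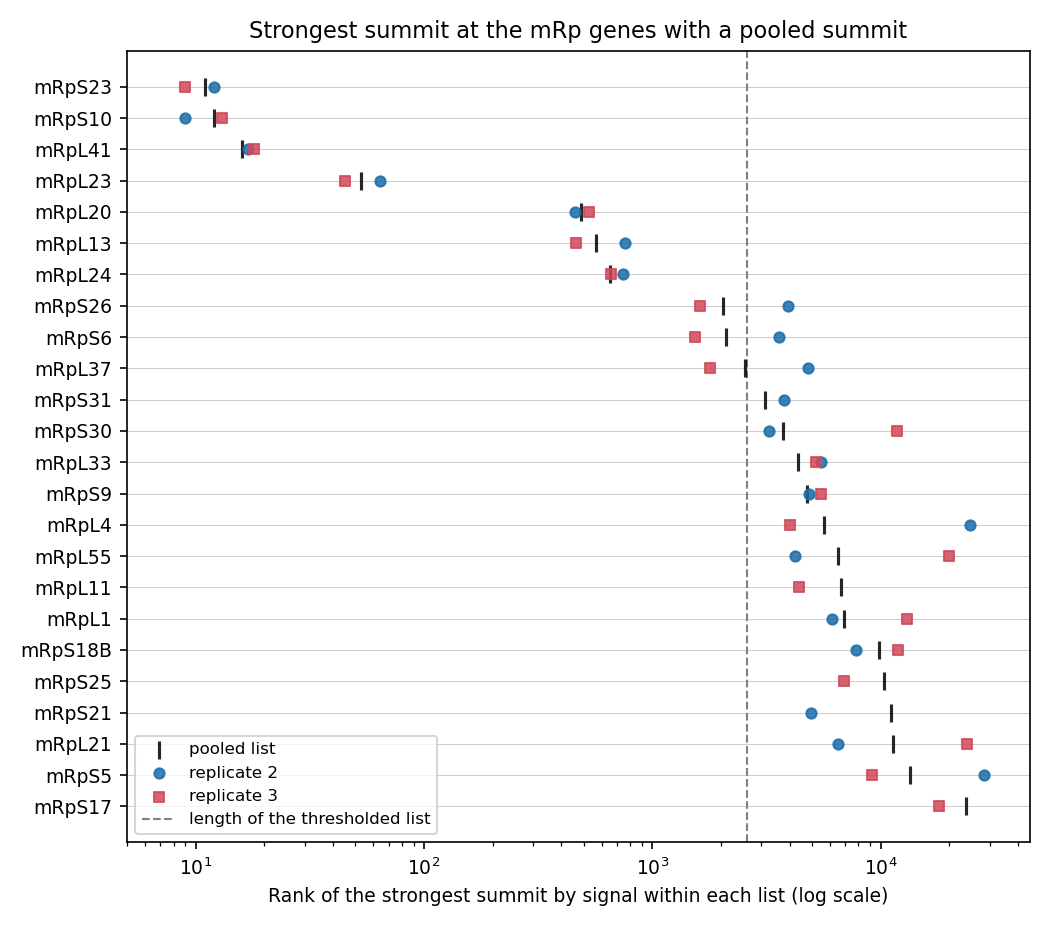
Rank by signal (x axis, log scale, strongest at the left) of the strongest summit in the gene or within 1 kb, for the 24 genes with a pooled summit (rows), in the pooled list (black ticks), replicate 2 (blue circles) and replicate 3 (red squares); the dashed line is at 2593, the length of the thresholded list. From mRpS23 to mRpL24 the marks of a gene lie left of the line, and at mRpS26, mRpS6 and mRpL37 replicate 2 lies right of it; the marks of a gene need not be the same summit, and a gene without a blue or red mark has no summit in that list.

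The share of genes with a thresholded summit was 10 of 73, 13.7% (95% Wilson interval 7.61% to 23.4%). These genes are short, with a median span of 909 bp, against 2178 bp for the other 13895 protein-coding genes. Each was therefore set beside the 50 other protein-coding genes nearest in span, 3650 pairs of 2607 different genes, of which 7.01% had such a summit. Among all other protein-coding genes, most of them longer, it was 15.0%. With both span and the arrangement of the neighbouring gene alike, the share was 9.48%, which lies within the interval of the 73 genes. No test was made, and these shares describe the lists only.

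Counted by distance to an own start site, 9 of 73 genes (12.3%, 95% Wilson interval 6.62% to 21.8%) had a thresholded summit within 500 bp, against 4.41% of the genes of like span. With span and arrangement alike it was 7.23%. mRpL13 was the exception among the 10, with its summit 1444 bp downstream of its own start site.

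In the relaxed pooled list, which holds the thresholded peaks too, 24 of 73 genes (32.9%, interval 23.2% to 44.3%) had a summit, against 38.6% of the genes of like span and 36.4% of those of like span and arrangement. In replicate 2 it was 30 of 73 (41.1%) against 41.3%, and in replicate 3 it was 24 of 73 (32.9%) against 41.7%. Both replicate lists had a summit at 19 genes (26%, interval 17.3% to 37.1%) against 25.8%. No summit was found in any list at 38 genes (52.1%, interval 40.8% to 63.1%), against 41.8%. In the pooled list, in both replicates and in no list, the share of the genes of like span lay within the interval of the 73 genes. A pooled summit only below the threshold was at 14 genes (19.2%, interval 11.8% to 29.7%), against 31.6% of the genes of like span, which lies above the interval, and 27% of those of like span and arrangement, which lies within it. Of the 24 genes with a pooled summit, 10 (41.7%, interval 24.5% to 61.2%) also passed the threshold, against 18.2% of the genes of like span with a pooled summit. With arrangement alike too, 346 of 1330 pairs with a pooled summit did, a share that lies within the interval.

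**Figure D3:**
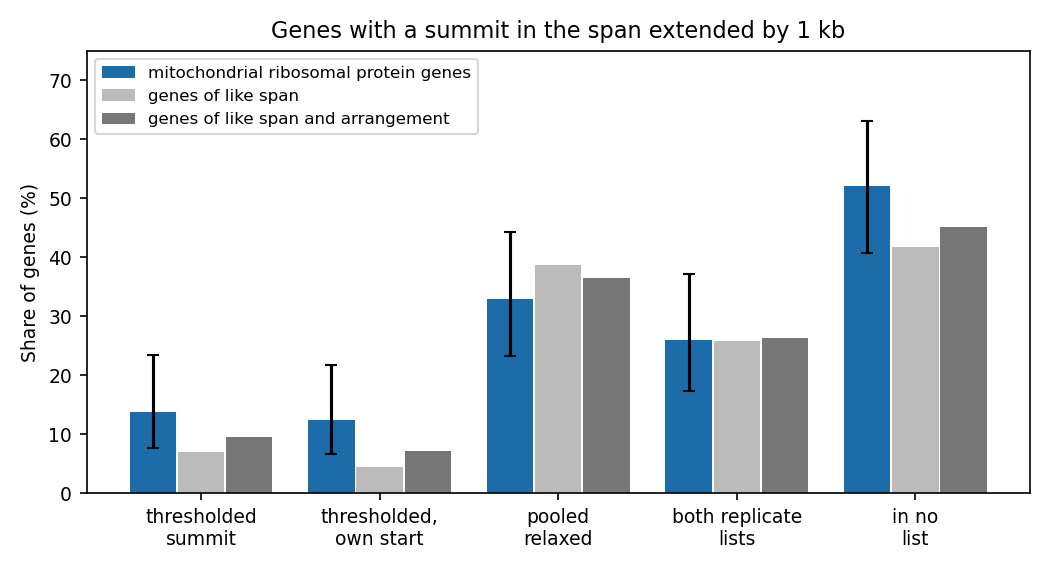
Share of genes in percent (y axis) with each kind of summit, for the 73 mitochondrial ribosomal protein genes (blue, with 95% Wilson intervals), protein-coding genes of like span (light grey) and those of like span and head-to-head arrangement (dark grey). The blue bars are higher for thresholded summits, with 13.7% against 7.01% and 9.48%, and not for relaxed ones, with 32.9% against 38.6% and 36.4% in the pooled list.

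Most of these genes start close to a neighbour that is read in the other direction. Of the 73, 58 (79.5%, interval 68.8% to 87.1%) had the start site of another gene on the opposite strand within 1 kb upstream, an arrangement called head-to-head. Of the genes of like span 35% did. The median distance between the 2 start sites was 283 bp in the 58 pairs, with a range of 20 to 793 bp. Of the 10 thresholded summits, 9 lay at head-to-head pairs and 8 of them between the 2 start sites, where no gene is annotated. Such a summit cannot be given to either gene of the pair from these lists. No such counts are given here for summits at the genes of like span, so they describe the 10 summits only.

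The neighbour was often the closer gene. The nearest start site was that of the mitochondrial ribosomal protein gene at 3 of 10 summits and that of another gene at 7. At mRpS23 the summit (2L 13835453) was 381 bp upstream of its start site and 111 bp upstream of that of CenG1A, which encodes a GTPase-activating protein for Arf. At mRpS10 (3R 15229517) it was 148 bp upstream, and 109 bp upstream of Art3, an arginine methyltransferase gene. At mRpL20 (3L 13018136) it was 269 bp upstream, and 130 bp upstream of Icmt, which encodes the carboxyl methyltransferase of prenylated proteins. At mRpL24 (2L 4945485) it was 124 bp upstream, and 94 bp upstream of betaggt-I, a geranylgeranyl transferase subunit gene. At mRpS26 (3L 18106356) the distances were 223 bp to its own start and 207 bp to that of CG13698. The mRpL13 summit (2L 18857804) lay in an intron of CG10602, 125 bp upstream of a start site of that gene.

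The remaining 3 summits were nearest to the mitochondrial ribosomal protein gene. At mRpL41 (2R 15217753) the summit was 136 bp upstream of its start site, and the start sites of the pair, with CG8079, are 762 bp apart. In all, 2 genes, mRpL41 among them, have a start site within 500 bp of this summit. At mRpS6 (3L 4364471) it was 79 bp upstream, in a pair with Cip4, an F-BAR protein gene, of 448 bp. At mRpL23 (3L 2373623), which has 3 annotated start sites, the summit was 55 bp downstream of the nearest of them. It lay in the annotated 5′ untranslated region of mRpL23, and the closest start sites of mRpL23 and CG9004 are only 24 bp apart.

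**Figure D4:**
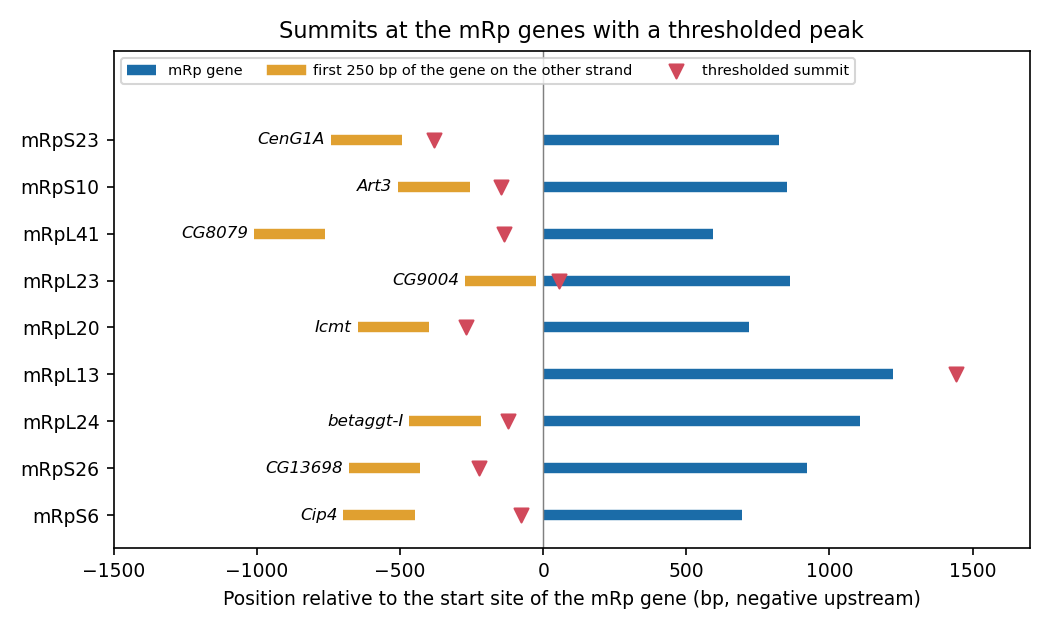
Position in bp from the start site of each gene (x axis, negative upstream) of the thresholded summit (red triangles), the gene itself (blue bars) and the first 250 bp of its head-to-head neighbour (orange bars), for 9 of the 10 genes ordered by peak signal (mRpL37 is not drawn). Of the triangles, 7 lie between the blue and the orange bar; at mRpL23 the summit is inside the gene, and at mRpL13 it is past the gene's end. The mRpL23 triangle is placed by its distance to the nearest of the 3 start sites of that gene.

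The distance between the start sites was set beside the peaks. Where over 250 and up to 500 bp separated the start sites, 6 of 28 genes had one (21.4%), against 15.1% of like-span pairs in that class. Where 1 to 100 bp did, 1 of 18 had one (5.56%) against 6.70%, and for over 100 and up to 250 bp it was 1 of 7 (14.3%) against 13.7%. Of the 18 close pairs only mRpL23 and mRpL55 had even a relaxed pooled summit, that of mRpL55 beyond its 3′ end. This is 11.1% of the pairs, against 21.0% of like-span pairs in that class. No list had a summit at 13 of the 18 (72.2%), against 57.6%. These include mRpL18, whose start site is 20 bp from that of Taz, and mRpS14, 21 bp from Naa15-16. Over 500 bp it was 1 of 5, against 9.80%. With no head-to-head neighbour, mRpL13 was the 1 of 15 genes (6.67%), against 4.30%. Given the few genes in each class, the shares with a thresholded summit differ by no more than 2 genes from those of like span. The share of close pairs in no list differs by more than 2 genes.

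**Figure D5:**
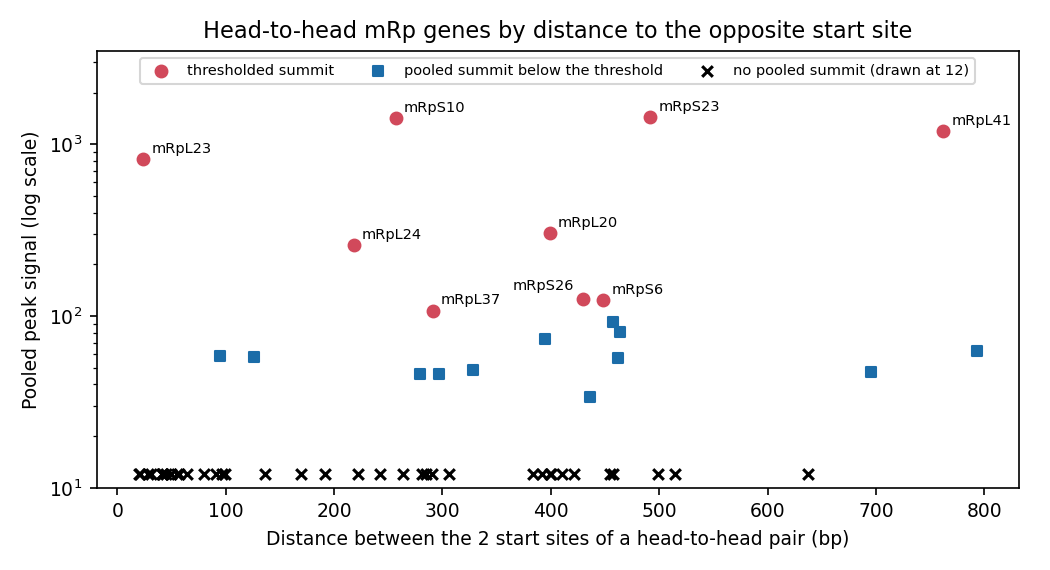
Distance between the 2 start sites of a head-to-head pair in bp (x axis) and signal of the strongest pooled summit (y axis, log scale) for the 58 head-to-head genes; red circles passed the threshold, blue squares did not, and crosses drawn at a fixed height of 12 are genes without a pooled summit. Crosses fill the range under 100 bp except at mRpL23 and mRpL55, and 6 of the 9 red circles lie between 250 and 500 bp.

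Thresholded peaks occurred at genes of both subunits. Of the 47 mRpL genes 6 had one (12.8%, against 6.34% of genes of like span), and of the 26 mRpS genes 4 did (15.4% against 8.23%). Relaxed pooled summits were at 12 mRpL genes (25.5% against 36.8%) and 12 mRpS genes (46.2% against 42.0%). By chromosome arm, thresholded summits were at 3 of 12 genes on 2L (6.26% of the genes of like span on that arm), 1 of 12 on 2R (5.25%), 4 of 17 on 3L (13.0%), 2 of 21 on 3R (6.36%) and 0 of 11 on X (2.86%).

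Another 14 genes had a pooled summit below the threshold, 9 of them with a summit in both replicate lists, not always the same summit as the pooled one. The strongest was at mRpS31, 154 bp upstream of its start site, with a pooled signal of 92.2 at rank 3109. Replicate 2 had it at rank 3788, with a summit 274 bp upstream, and had none in replicate 3. mRpS30 followed with a signal of 81.2 at rank 3747, beyond its 3′ end at 2418 bp from its start site, as the strongest of 3 pooled summits, with ranks 3259 and 11780 in replicates 2 and 3. mRpL33 had a signal of 73.0 at rank 4360, with ranks 5508 and 5225. The mRpL33 summit was 659 bp upstream, past the start site of norpA, its head-to-head neighbour, at 395 bp. mRpS9, the longest of the 73 with 13391 bp, had 3 pooled summits, the strongest at rank 4743 in the body of the gene. mRpL4 had a signal of 62.8 at rank 5658, 144 bp upstream of its start site, with ranks 24596 in replicate 2 and 3991 in replicate 3. mRpL55 had a signal of 58.2 at rank 6526, with ranks 4219 and 19852. At mRpL55 the replicate 3 summit lay farther than 200 bp from the pooled one, so its rank is that of another summit. The replicates differed severalfold in rank at mRpS30 and mRpL4 but not at mRpL33. Between the weakest peak inside the threshold, at mRpL37 with a signal of 107, and the strongest outside it, at mRpS31 with 92.2, the step was small.

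A further 11 genes had a summit in a replicate list and none in the pooled list, 9 in replicate 2 only and 2 in replicate 3 only. No such counts are given here for the genes of like span. The number and its split between the replicates therefore describe these 11 genes only, and are not shown to set them apart. The strongest summit at the 11 genes was at mRpS2, the counterpart of a bacterial small subunit protein, at rank 673 in replicate 2 with a signal of 114. Its summit (2L 4850566) was 147 bp upstream of the start site. That of Mon1, its head-to-head neighbour, is 222 bp away, so the summit lay between the start sites and nearer to Mon1. Neither the pooled list nor replicate 3 had a summit within 1 kb of mRpS2. The next was beyond the 3′ end of mRpL27 at rank 1733 in replicate 2 with a signal of 65.2. Of the 2593 strongest peaks of replicate 2, 118 (4.55%) had no pooled summit within 200 bp, and 67 of those of replicate 3 (2.58%). Taken alone, the 2593 strongest peaks of replicate 3 marked the same 10 genes as the thresholded list. Those of replicate 2 marked 9, of which 7 were shared, with mRpS2 and mRpL27 added and mRpS6, mRpS26 and mRpL37 missing.

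The promoters and summits were searched for 9 sequence motifs on both strands. A match is only a match of letters. Promoter shares and promoter GC content are set against all other protein-coding genes, alike in neither span nor arrangement. Of those genes 39.4% were head-to-head, against 79.5% of the 73. The DRE sequence TATCGATA, known to be bound by DREF and BEAF-32, was in the promoter (250 bp before the start of the gene to 50 bp after) of 15 of the 73 genes (20.5%), against 9.30% of 13895 other protein-coding genes. It was in the promoters of mRpS23 and mRpL20 among the 10 genes with a thresholded summit, and of 13 genes among the other 63. None of the 10 summit windows (100 bp to either side) held it, while 1.08% of all thresholded summit windows did. The core of Motif 1, GGTCACAC, was in 8 promoters (11.0% against 7.67%), and CACGTG in 5 (6.85% against 4.18%). CACGTG was in 1 of the 10 summit windows, at mRpL23, and in 2.31% of all thresholded summit windows. In the same windows TATAAA was at 4 of the 10 against 35.3%, AGATAA at mRpL41 against 14.5%, and Motif 6 at mRpL41 against 0.463%. The core of Motif 1 was at none of the 10, against 1.04%, and neither was the GAGA repeat, against 4.44%. The ETS core and the nuclear respiratory gene element were also at none, against 0.656% and 1.04%. The GATA sequence AGATAA was in 17 promoters (23.3% against 18.6%) and the TATA sequence TATAAA in 34 (46.6% against 45.8%). The GAGA repeat GAGAGAG was in 1 (1.37% against 5.88%), and Motif 6, searched by its known consensus, in 3 (4.11% against 2.22%). The ETS core CCGGAAG and the nuclear respiratory gene element were in none of the 73 promoters, against 1.09% and 0.878% of the others. The GC content of the promoter had a median of 32.7% in the 10 genes with a thresholded summit and 35.7% in the other 63, against 38.0% in other genes.

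Other genes of mitochondrial gene expression and respiration were counted in the same way. Of 84 nuclear genes for subunits of oxidative phosphorylation, paralogues included, 5 had one (5.95%, against 7.86% of genes of their span), the strongest at ND-MWFE, a complex I subunit gene, with a signal of 324. The next were at SdhB, a complex II subunit gene, with 158 and ATPsynE, an ATP synthase subunit gene, with 148. All 3 summits were nearest to the start site of another gene. Of 15 mitochondrial aminoacyl-tRNA synthetase genes only LeuRS-m had one (6.67% against 12.3%), 820 bp upstream of its start site. Of 10 mitochondrial translation factor genes waw, which encodes an elongation factor-like GTPase, had one, 4822 bp from its start site, which is 10% of the list against 10% of the genes of like span. Of 15 genes for maintenance and expression of mitochondrial DNA, PNPase, which encodes a mitochondrial RNA exonuclease, had one (6.67% against 10.8%), at 72 bp upstream of its start site with a signal of 1444 at rank 10. Of 15 import genes 3 had one (20%, interval 7.05% to 45.2%, against 8.40%), at Tom20, Tim17a2 and Tom7. The Tom7 summit was nearest to its own start site, and the other summits were nearest to those of CG7668 and lncRNA:CR45793. The 2 mitochondrial ribosomal protein genes with other symbols, tko and bonsai, had no summit in the thresholded or the pooled list.

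The genes for cytosolic ribosomal proteins carried thresholded summits more often, at 29 of 85 genes (34.1%, interval 24.9% to 44.7%), against 7.98% of genes of their span. The intervals of the cytosolic and the mitochondrial genes do not overlap. Their strongest peaks were weaker than those of the mitochondrial set: RpS27 had a signal of 517 at rank 167, RpL23A 396 at rank 293 and RpL7 379 at rank 329, while mRpS23, mRpS10, mRpL41 and mRpL23 ranged from 1442 to 823. The summits at RpS27, RpL23A and RpL7 were nearest to their own start sites, as were those at mRpL41 and mRpL23. Those at mRpS23 and mRpS10 were nearest to the start sites of CenG1A and Art3, so they cannot be given to the mitochondrial set alone. Nor can that at mRpL41, which lay between the 2 start sites of its pair. At mRpL23 the closest start sites of the pair are 24 bp apart. Of the cytosolic genes 64.7% were head-to-head, against 79.5% of the mitochondrial ones.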

How the data were processed

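ChIP-seq peaks were measured in 2 replicates of 1 group. Per the file headers in the deposited readme texts, relaxed peaks were made for either replicate and for their pooled reads with a control alignment (dm6; control not analysed here). The thresholded list came from these through the irreproducible discovery rate. The aligner and caller were not given in the sources used here. Depth is unknown. Each deposited peak carries the authors' signal value and the −log10 of its q-value. Only the signal was used, for ranks within a list.

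Summits (start plus offset) were given in 1-based dm6 coordinates. Gene models were those of Ensembl release 115, and sequence that of RefSeq (Release 6). A gene had a summit when it lay in the span or within 1 kb. Genes of like span were the 50 other protein-coding genes nearest in log span to each gene, so genes can recur. For like arrangement they were taken among genes with, or without, an opposite start site within 1 kb upstream. Wilson intervals at 95% cover counting error only and treat genes as independent. The text names every gene of the set with a thresholded summit, the 6 others with the highest pooled signal and up to 3 genes of each other list; mRpS2, mRpL27, mRpL18, mRpS14, mRpL40, mRpL11 and mRpL35 were named after their values were seen. Of the translation factor names listed, 5 matched no gene. Genes, lists and rules were chosen with earlier results of these data known. Counting was tested on simulated data with planted summits. Versions were pysam 0.24.0, matplotlib 3.10.9, scipy 1.17.1, pandas 2.3.3, numpy 2.4.6 and Python 3.11.15. The neighbour and sequence at 1 summit, that of mRpL37, are not reported here.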

Additional observations from a re-analysis of the deposited data

How the results depend on the processing

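The 10 genes with a thresholded summit became 9 to 10 with a replicate left out, 7 in the 1296 strongest peaks, 10 with summits within 200 bp merged or the span extended by 500 bp, and 14 by 2 kb. Without any extension 1 gene remained, since most summits lie upstream of these genes. Giving each summit only to the nearest start site left 4 genes, among them mRpL40, whose summit lies 14902 bp upstream. An alternative chosen after seeing the data, a summit among the 2593 strongest peaks of both replicates, gave 7. The ratio of the share to that of genes of like span, 1.95 (1.09 to 3.34 from the Wilson bounds), was 1.67 to 1.98 with a replicate left out and 1.45 with like arrangement. It was 1.03 by the nearest start site and 0.915 against all protein-coding genes. The other settings gave 1.43 to 2.50. Genes with a summit within 500 bp of an own start site numbered 7 to 9 with a replicate left out and 6 to 9 in the other settings. Genes with a summit in both replicate lists numbered 19, against 3 without extension, 12 with the 10000 and 10 with the 5000 strongest peaks of each list; replicate 3 alone gave 24 and replicate 2 alone 30. No paired analysis was possible because there is 1 group.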

Other observations

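Some head-to-head neighbours also encode mitochondrial proteins, a point noticed after the values were seen and not tested. mRpL55 lies 95 bp from ATPsynD, an ATP synthase subunit gene, and had a relaxed pooled summit at rank 6526, beyond its 3′ end. mRpL11 lies 126 bp from HtrA2, a mitochondrial protease gene, with a pooled summit at rank 6697. That summit was 183 bp upstream of the mRpL11 start site, past the start site of HtrA2 and not between the 2. mRpL35 lies 192 bp from Mitofilin, a cristae organising protein gene, and had no summit in any list.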
